A study of Homo sapiens with 60 samples.

Results

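The pentose phosphate and NADPH enzymes described here are 8 genes, PGLS, PGD, RPIA, RPE, TKT, TALDO1, ME1 and IDH1, chosen by name from the 60675 genes of the count table. All 8 passed the filter on low counts, which left 18396 genes for the tests. They were followed by RNA sequencing in A549, an established cell line from a human lung carcinoma. The cells had been treated for 24 h with vehicle or with an ethanol extract of 1 of 4 single herbs or 4 herbal formulas. The series holds 60 libraries and measures what each extract does to the transcriptome at a low, a medium and a high dose.

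Polygalae Radix (15.2, 76 and 380 µg/mL) had 2 libraries per dose, as did Aucklandiae Radix (14.8, 74 and 370 µg/mL). Menthae Herba and Saposhnikoviae Radix were given at 20, 100 and 500 µg/mL with 3 libraries per dose. The formulas Saengmaek-san and Guibi-tang had those doses and 3 libraries each, Soyo-san had 2 and Okbyeongpung-san had 1. The vehicle group held 3 libraries. The sample labels give its DMSO content as 0.1%, and the series description gives 2%. Nothing in the labels says that replicates were separate cultures, and the p-values therefore cover only the spread between libraries, which may be technical.

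The pentose phosphate pathway branches from glycolysis at glucose 6-phosphate. Its oxidative branch (PGLS and PGD here) makes NADPH and ribulose 5-phosphate, and its non-oxidative branch (RPIA, RPE, TKT and TALDO1) interconverts sugar phosphates, feeding ribose 5-phosphate to nucleotide synthesis and returning carbon to glycolysis. ME1 and IDH1 make cytosolic NADPH outside the pathway, from malate and isocitrate. NADPH drives fatty acid synthesis and the reduction of glutathione and thioredoxin. The transcription factor NRF2 is known to drive several of these genes, and A549 cells carry a mutation in its repressor KEAP1.

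Values are given as CPM, expected counts relative to the TMM-scaled library total, which are not corrected for gene length and are compared here between libraries, never between genes. Library totals ran from 17113963 to 33363661 expected counts. The line's epithelial keratins KRT8 and KRT18 were at 441 to 4930 and 390 to 3730 CPM. The other epithelial markers KRT19, CDH1 and EPCAM were at 2.13 to 46.2, 11.8 to 35.9 and 2.13 to 7.14 CPM. The T cell marker CD3E was at 0 in 60 libraries and the surfactant gene SFTPA1 at 0 in 58. The fibroblast marker DCN was at 0 in 44 libraries and the pan-leukocyte marker PTPRC in 55. However, CD68 was at 2.02 to 22.4 CPM, COL1A1 at 10.9 to 39.7 CPM and COL3A1 at 2.18 to 6.84 CPM. In bulk libraries, fewer cells of a type and less RNA per cell cannot be told apart.

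The libraries fall into 2 classes by their level of ENSG00000282955, a gene without a symbol in the tables used: 38 libraries hold at most 3.504 CPM (class 1) and 22 hold at least 17.65 CPM (class 2). Vehicle, Soyo-san and Okbyeongpung-san libraries are all of class 2, and Aucklandiae Radix and Menthae Herba libraries all of class 1. Within groups that hold both classes, PGLS was higher by 0.29 ± 0.05, PGD by 0.22 ± 0.02, TKT by 0.22 ± 0.02 and TALDO1 by 0.10 ± 0.03 in class 2 (log2, class 2 minus class 1, ± SE). RPIA was lower there at -0.28 ± 0.04, ME1 at -0.16 ± 0.02 and RPE at -0.15 ± 0.02. These 7 passed at an adjusted p of 0.0121 or below, IDH1 did not (-0.05 ± 0.03, adjusted p = 0.1), and 47.7% of all genes were called. The library names also put vehicle in a set of its own, so each difference from vehicle is also one between library sets. Differences within an extract or between extracts of 1 set are free of the set, though not always of the class.

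The sequences upstream of the members are shown because several members are known NRF2 targets and most of them moved together below. RefSeq promoter windows (GRCh38.p14, 250 bases before to 50 after a start) matched all 8 members and gave 9 windows, since IDH1 has 2. Both strands were searched for the antioxidant response element core TGACNNNGC, the site class that NRF2 binds, whose other strand reads GCNNNGTCA. It stood in 4 of the 9 member windows, against 13.3% of 35116 windows. These belong to PGD, RPE, ME1 and the second IDH1 window. The amino acid response motif TGATGNAA was in 0 of the 9, against 3.62% of all windows. The stretches from 210 to 101 bases before the start are printed 5′ to 3′ on the gene's strand, with the core in capitals. TKT and TALDO1, which fell most among the pathway members, have no core in their windows and are shown for comparison. A match describes the letters only.
PGD, chr1:10398854-10398963, plus strand: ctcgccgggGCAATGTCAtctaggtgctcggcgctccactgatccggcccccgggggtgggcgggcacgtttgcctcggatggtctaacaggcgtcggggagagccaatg
ME1, chr6:83431152-83431261, minus strand: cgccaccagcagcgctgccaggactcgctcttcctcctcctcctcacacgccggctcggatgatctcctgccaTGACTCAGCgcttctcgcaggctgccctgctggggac
IDH1, chr2:208255172-208255281, minus strand: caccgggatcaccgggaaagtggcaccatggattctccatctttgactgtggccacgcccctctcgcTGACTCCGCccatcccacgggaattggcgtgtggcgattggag
RPE, chr2:210002428-210002537, plus strand: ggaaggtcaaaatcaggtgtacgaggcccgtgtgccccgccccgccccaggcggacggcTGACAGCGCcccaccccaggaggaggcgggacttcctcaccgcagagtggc
TKT, chr3:53256123-53256232, minus strand: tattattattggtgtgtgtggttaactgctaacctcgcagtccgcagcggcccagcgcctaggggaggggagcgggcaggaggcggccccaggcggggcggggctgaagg
TALDO1, chr11:747254-747363, plus strand: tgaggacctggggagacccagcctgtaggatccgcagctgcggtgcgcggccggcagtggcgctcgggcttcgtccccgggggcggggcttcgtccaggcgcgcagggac

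At the high dose of Polygalae Radix, 7 of the 8 members fell against vehicle and RPIA did not pass the test. TKT fell to 17.5% of the vehicle mean, IDH1 to 22.1%, TALDO1 to 26.3%, PGD to 34.1%, ME1 to 39.9% and PGLS to 50.4%. Over all genes tested, 59.5% were called in this comparison and 29.5% were called lower, so a called gene was common. A change of 2-fold or more was called for 5 members, against 20.7% of all genes in either direction. The members' median log2 fold change was -1.44, against 0.05 for all genes.

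Of the oxidative branch, PGD (chromosome 1, 10398592 to 10420144, GRCh38), which oxidises 6-phosphogluconate and releases the second NADPH of the branch, had 518.3 and 467.2 CPM in the high-dose libraries, against 1436, 1487 and 1413 CPM in vehicle. Its log2 fold change was -1.55 ± 0.10 (SE, edgeR quasi-likelihood test, adjusted p = 3.22e-18). Both high-dose libraries lay far below every vehicle library, and 34.3% of all genes lay below vehicle in both. PGLS (chromosome 19, 17511629 to 17521288), which hydrolyses 6-phosphogluconolactone, had 15.36 and 14.06 CPM, against 27.52, 28.82 and 31.27 CPM in vehicle, a log2 fold change of -0.99 ± 0.16 (edgeR adjusted p = 9.42e-07).

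In the non-oxidative branch both transferases fell to well under the vehicle level. TKT (chromosome 3, 53224707 to 53256052), the transketolase that moves 2-carbon units, had 312.1 and 280.6 CPM, against 1687, 1712 and 1679 CPM in vehicle, and fell by 2.51 on the log2 scale (SE 0.10, edgeR adjusted p = 3.04e-24). That change exceeded the absolute change of 97.7% of all genes tested. TALDO1 (chromosome 11, 747329 to 765024), the transaldolase that works with TKT, had 57.6 CPM in both libraries, against 215.5, 225.8 and 216.1 CPM in vehicle, a log2 fold change of -1.93 ± 0.09 (edgeR adjusted p = 1.92e-22).

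RPE (chromosome 2, 210002565 to 210022259), the epimerase that makes xylulose 5-phosphate, had 70.42 and 83.9 CPM, against 90.95, 87.74 and 88.94 CPM in vehicle. Its change of -0.21 ± 0.08 passed the test (edgeR adjusted p = 0.0163). It did not pass without high-dose replicate 2, when it was -0.09, nor with only the 5 libraries compared in the fit (adjusted p = 0.0926). Replicate 2 is the high-dose library of vehicle's class, and within that class the log2 ratio of RPE was -0.34. With the class as a covariate RPE changed by -0.29 and passed (edgeR adjusted p = 1e-05), with 62.1% of all genes called in that fit. RPIA (chromosome 2, 88691644 to 88750935), the isomerase that makes ribose 5-phosphate, had 20.43 and 30.11 CPM, against 21.95, 21.91 and 21.53 CPM in vehicle. One high-dose library lay below and the other above the vehicle libraries, and the change of 0.22 ± 0.13 did not pass (edgeR adjusted p = 0.135). Without high-dose replicate 2, the RPIA change was 0.47, which sets a class 1 library against class 2 vehicle. With the class as a covariate RPIA changed by 0.07 (edgeR adjusted p = 0.551). Within class 2 its log2 ratio was -0.09.

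Both NADPH enzymes outside the pathway fell. IDH1 (chromosome 2, 208236227 to 208266074), the cytosolic and peroxisomal isocitrate dehydrogenase, had 48.01 and 52.66 CPM, against 234.1, 225.8 and 222.3 CPM in vehicle, a log2 fold change of -2.17 ± 0.07 (edgeR adjusted p = 1.54e-27). ME1 (chromosome 6, 83210389 to 83431071), the cytosolic malic enzyme, had 56.99 and 65.19 CPM, against 155, 152.1 and 152.6 CPM in vehicle, a log2 fold change of -1.32 ± 0.08 (edgeR adjusted p = 4.5e-18). The groups did not overlap for either gene, and 34.3% of all genes lay below vehicle in that way.

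**Figure D1:**
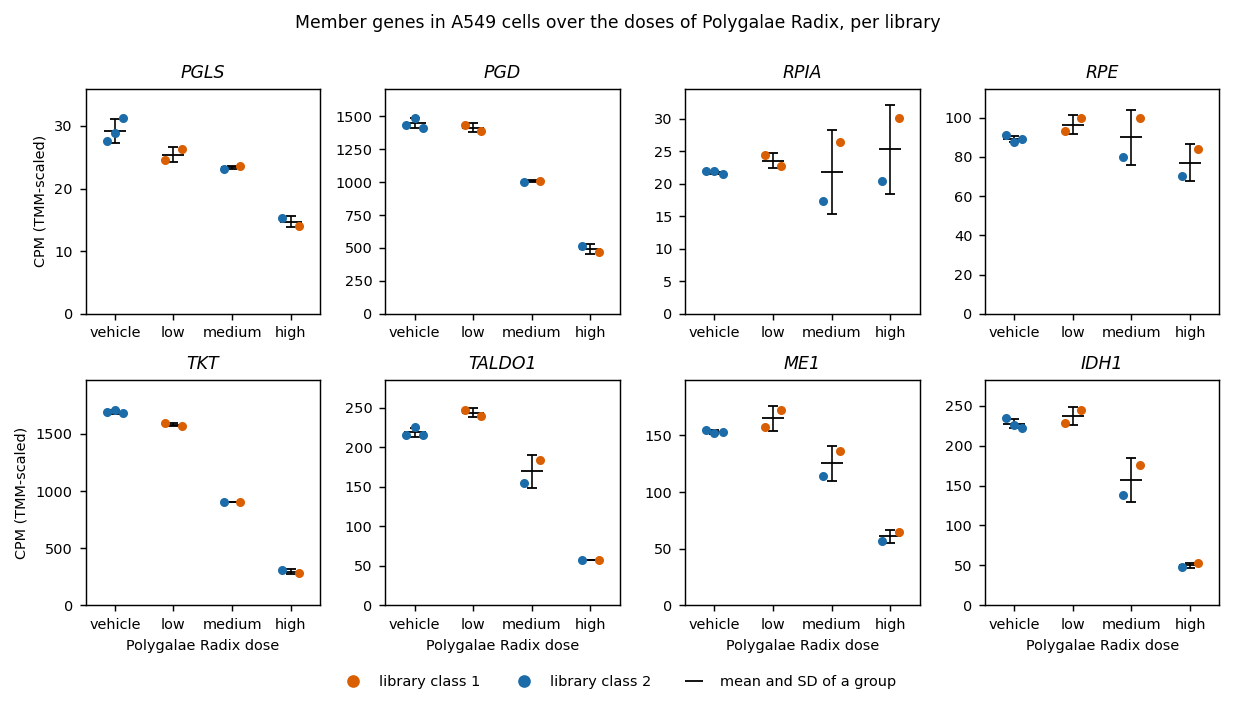
CPM of each member (vertical axis, starting at 0) in every library of vehicle and of the low, medium and high dose of Polygalae Radix (horizontal axis). Points are libraries, coloured by library class, and bars give the mean and SD of a group. TKT lies at 280.6 and 312.1 CPM at the high dose and at 904.3 and 904.5 CPM at the medium dose, while the RPIA points of a dose spread on both sides of vehicle.

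Of the 2 high-dose libraries, replicate 2 is of class 2, like vehicle, and replicate 3 of class 1. Within class 2, that single library against vehicle gave log2 ratios of -2.44 for TKT, -2.24 for IDH1, -1.93 for TALDO1, -1.48 for PGD, -1.43 for ME1 and -0.92 for PGLS, close to the values above. The epithelial markers EPCAM, KRT8, KRT18, KRT19 and CDH1 also fell in this comparison (5 of 5, median log2 fold change -2.77), and their summed level was 847 to 984 CPM at the high dose, against 6530 to 6890 CPM in vehicle. Mitochondrially encoded mRNAs took 14.36% of the counts in replicate 2 and 6.175% in replicate 3, against 8.662% to 8.897% in vehicle. The part of these shifts in the members' levels was not tested.

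The means of TKT and PGD fell with each rise in dose. TKT averaged 1693 ± 17.5 CPM in vehicle (SD, n = 3) and 1581 ± 15.3, 904.4 ± 0.157 and 296.3 ± 22.3 CPM at the low, medium and high dose (SD, n = 2 each). PGD averaged 1445 ± 37.6 CPM in vehicle and 1413 ± 33.8, 1005 ± 7.9 and 492.7 ± 36.2 CPM at the rising doses. For both genes the low-dose libraries lay within or just under the vehicle libraries, and each higher dose lay below the one before it. PGLS averaged 87%, 80% and 50.4% of the vehicle mean at the rising doses. TALDO1, ME1, IDH1 and RPE averaged 111%, 108%, 104% and 108% at the low dose, above vehicle, and less at each higher dose. RPIA followed no such order (108%, 100% and 116%).

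At the medium dose 5 members fell: TKT (-0.90 ± 0.10), IDH1 (-0.54 ± 0.07), PGD (-0.52 ± 0.09), TALDO1 (-0.37 ± 0.08) and ME1 (-0.29 ± 0.08), with edgeR adjusted p-values from 8.56e-10 to 0.00681. Over all genes 18.2% were called and 9.57% were called lower. PGLS lay below vehicle in both libraries at 23.2 and 23.55 CPM, as did 20.4% of all genes. It did not pass (-0.32, edgeR adjusted p = 0.148), and RPIA (0.02) and RPE (0.01) sat near 0. The calls of TALDO1 and ME1 were lost without medium-dose replicate 2, the one of vehicle's class, where their changes were -0.25 and -0.17. With the class as a covariate their changes were -0.31 and -0.38 and passed (edgeR adjusted p = 0.00129 and 5.7e-07). That fit called 27.2% of all genes. With only the 5 libraries compared in the fit, TALDO1, ME1 and IDH1 had adjusted p-values of 0.0777, 0.119 and 0.056. At the low dose 0 members were called by edgeR or by the DESeq2 Wald test, and 0 had an unadjusted p under 0.05, with 6.11% of all genes called by edgeR. With the class as a covariate PGD (0.18) and TALDO1 (0.25) passed as higher there (edgeR adjusted p = 0.0169 and 0.0263). With only the groups compared in the fit, PGLS (-0.19), RPE (0.12) and TALDO1 (0.16) passed.

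Within Polygalae Radix, the high against the low dose involves no vehicle library and stays inside 1 library set. TKT (-2.42 ± 0.11), IDH1 (-2.23 ± 0.07), TALDO1 (-2.08 ± 0.09), PGD (-1.52 ± 0.10), ME1 (-1.43 ± 0.09), PGLS (-0.79 ± 0.17) and RPE (-0.32 ± 0.08) fell, with edgeR adjusted p-values of 0.000843 or below. Of all genes, 56.9% were called here and 29.1% were called lower. The change was 2-fold or more for 5 members and 19.7% of all genes. RPIA differed by 0.11 (95% interval -0.17 to 0.40), which did not pass, but with the class as a covariate the difference was 0.23 and passed (adjusted p = 0.0408). The low-dose libraries are both of class 1, and within class 1 (1 library against 2) TKT differed by -2.49, IDH1 by -2.17, PGD by -1.60 and RPIA by 0.36. RPE was again lost without high-dose replicate 2 (-0.20) and with only these libraries in the fit (adjusted p = 0.0983).

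**Figure D2:**
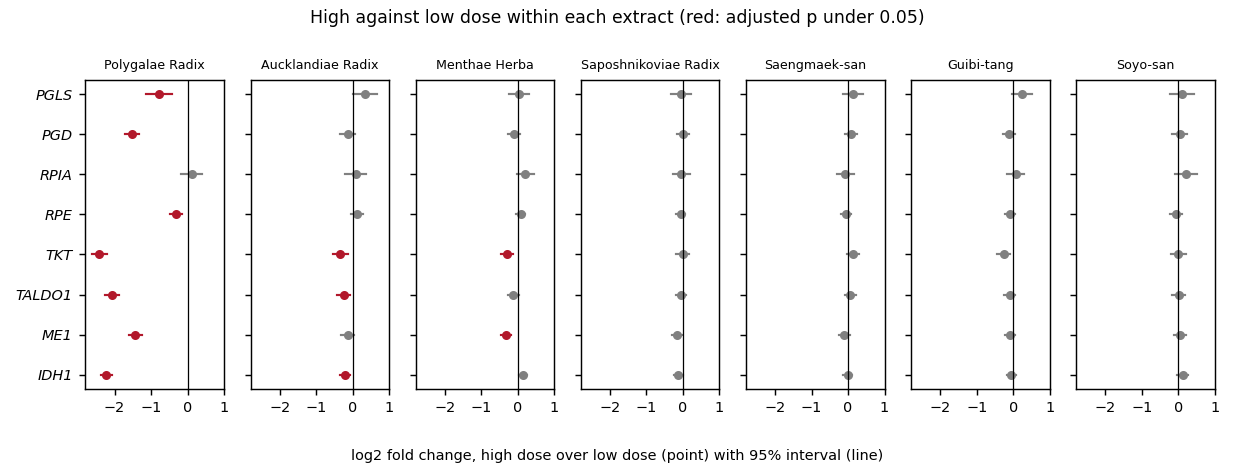
Log2 fold change of each member (rows) between the high and the low dose of each of 7 extracts (panels), with its 95% interval as a line; red marks an adjusted p under 0.05. In Polygalae Radix 7 members lie left of 0, from -0.32 (RPE) to -2.42 (TKT), while in the other panels no point lies below -0.34.

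Set against Aucklandiae Radix, which shares its library set, at the high doses of 380 and 370 µg/mL, Polygalae Radix was lower for the same 7 members, with 29.9% of all genes called lower. The difference was 2-fold or more for 6 members and for 21.1% of all genes in either direction. TKT was at 296.3 ± 22.3 CPM in Polygalae Radix and 1322 ± 7.79 CPM in Aucklandiae Radix libraries (SD, n = 2 each), a difference of -2.16 ± 0.11 (edgeR adjusted p = 2.58e-21). IDH1 was at 50.34 ± 3.28 CPM against 212 ± 3.51 CPM, a difference of -2.07 ± 0.07 (edgeR adjusted p = 5.74e-26). RPIA was at 25.27 ± 6.84 CPM against 25.47 ± 0.821 CPM, and its difference of 0.00 had a 95% interval of -0.29 to 0.29. Within class 1 (1 library against 2) TKT differed by -2.24 and IDH1 by -2.01. RPE differed by -0.39 ± 0.08, a call that was lost with only these 4 libraries in the fit (adjusted p = 0.0565).

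TKT was also lower at the high dose of 3 other extracts, by far less. In Aucklandiae Radix it had 1317 and 1328 CPM, in Menthae Herba 1320, 1357 and 1378 CPM and in Guibi-tang 1304, 1308 and 1561 CPM, all below the 1679 to 1712 CPM of vehicle. Lying below every vehicle library was common, at 32% of all genes in Aucklandiae Radix, 26.6% in Menthae Herba and 15.5% in Guibi-tang. The log2 fold changes of TKT were -0.36 ± 0.09 in Aucklandiae Radix, -0.32 ± 0.08 in Menthae Herba and -0.28 ± 0.08 in Guibi-tang (edgeR adjusted p = 0.00251, 0.00247 and 0.0238). Of all genes, 17.1% were called lower in Aucklandiae Radix, 14.9% in Menthae Herba and 4.95% in Guibi-tang, and TKT was the only member called lower in each. With the library class as a covariate the Aucklandiae Radix and Menthae Herba changes were -0.14 and -0.11 and no longer passed (adjusted p = 0.0521 and 0.115). The Guibi-tang change was -0.14 with that covariate and passed (adjusted p = 0.034). In that fit ME1 was called lower in Aucklandiae Radix (-0.20, edgeR adjusted p = 0.00511) and Menthae Herba (-0.33, edgeR adjusted p = 1.98e-06). PGLS was called higher in Aucklandiae Radix (0.51), Menthae Herba (0.38) and Guibi-tang (0.35), and TALDO1 (0.18) and IDH1 (0.16) in Menthae Herba. With the covariate 37.1% of all genes were called in Aucklandiae Radix, 31.1% in Menthae Herba and 18.7% in Guibi-tang. The Guibi-tang call was lost in 5 of the 6 fits that each left out 1 library, namely those without Guibi-tang replicate 1 or 2 or without any of the 3 vehicle libraries. The change ran from -0.37 to -0.24 over these 6 fits.

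Within these extracts the low and the high dose hold libraries of the same classes. The high dose of Menthae Herba against its low dose gave -0.30 ± 0.08 for TKT (edgeR adjusted p = 0.0084) and -0.32 ± 0.07 for ME1 (adjusted p = 0.000705). ME1 had 132.4, 136.5 and 139.7 CPM at the high dose and 162.6, 163.8 and 183.2 CPM at the low dose, and the groups did not overlap, as for 17.9% of all genes. Of all genes, 9.37% were called lower. In Aucklandiae Radix, TKT (-0.34 ± 0.10), TALDO1 (-0.25 ± 0.09) and IDH1 (-0.20 ± 0.07) were lower at the high than at the low dose (edgeR adjusted p = 0.0129, 0.0463 and 0.0354), with 9.25% of all genes called lower. These 3 calls were lost whichever of the 4 libraries was left out, and those of TALDO1 and IDH1 with no filter on low counts too (adjusted p = 0.13 and 0.284). In Guibi-tang, TKT differed by -0.26 ± 0.08 between the high and the low dose and did not pass (edgeR adjusted p = 0.0893), and 2.86% of all genes were called. This was the member with an unadjusted p under 0.05 (1 of 8). It passed with the DESeq2 Wald test (adjusted p = 0.0382), with the class as a covariate (adjusted p = 0.000148) and without low-dose replicate 2 or high-dose replicate 3.

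Between the extracts of a library set at the high dose, TKT was lower by 0.39 ± 0.08 (log2) in Guibi-tang than in Saengmaek-san, where it had 1816, 1631 and 2008 CPM (edgeR adjusted p = 0.00374, 1.51% of all genes called lower). That call was lost without Guibi-tang replicate 1 or replicate 2 and with only the 6 libraries in the fit (adjusted p = 0.782), and the difference ran from -0.48 to -0.31 with 1 library left out. Within class 1 the difference was -0.32, and within class 2 it was -0.29. TKT was likewise lower in Menthae Herba than in Saposhnikoviae Radix (-0.27 ± 0.08, edgeR adjusted p = 0.0164, 9.81% of all genes called lower), and that call was lost without Menthae Herba replicate 1 or Saposhnikoviae Radix replicate 2.

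In Menthae Herba at the high dose, 2 members were higher than in vehicle, against 14.5% of all genes. RPIA had 27.24, 29.86 and 30.04 CPM, against 21.53 to 21.95 CPM in vehicle, a log2 fold change of 0.41 ± 0.12 (edgeR adjusted p = 0.00545). IDH1 had 253.1, 267.6 and 270.8 CPM, against 222.3 to 234.1 CPM in vehicle, a log2 fold change of 0.21 ± 0.06 (edgeR adjusted p = 0.00395). IDH1 was also higher than in Saposhnikoviae Radix of the same set (0.24 ± 0.06, edgeR adjusted p = 0.00176, 6.16% of all genes called higher). With no filter on low counts, the IDH1 difference from vehicle no longer passed (0.22, adjusted p = 0.0535). The RPIA difference from vehicle was 0.14 with the class as a covariate (adjusted p = 0.262). Its difference from Saposhnikoviae Radix was 0.32, which did not pass (adjusted p = 0.0535). That difference passed with no filter (adjusted p = 0.0158), with the class as a covariate (0.23, adjusted p = 0.0321), with the DESeq2 Wald test (adjusted p = 0.0474) and with only the groups compared in the fit (adjusted p = 0.0412). At the low dose TALDO1 alone was called, higher by 0.21 ± 0.07 (edgeR adjusted p = 0.0437, 7.23% of all genes called higher). That call was lost without any 1 of the 3 vehicle libraries and without low-dose replicate 1 or 3.

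**Figure D3:**
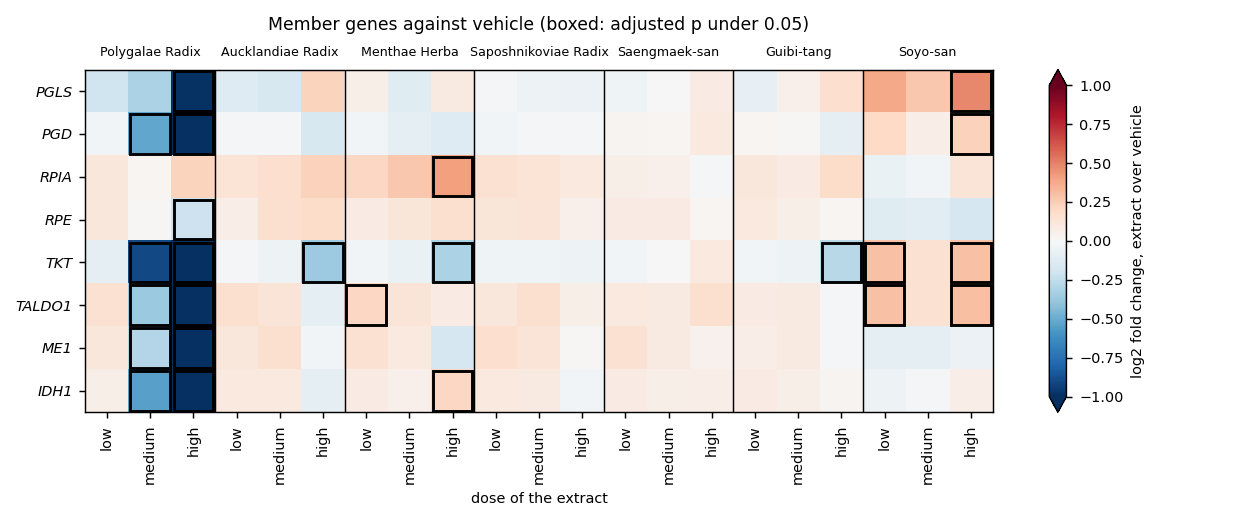
Log2 fold change of each member (rows) against vehicle for the low, medium and high dose of 7 extracts (columns). The colour scale (blue lower, red higher) ends at -1 and 1, values beyond take the end colours, and boxes mark an adjusted p under 0.05. The boxed cells of Polygalae Radix are blue, those of Soyo-san are red, and Saposhnikoviae Radix and Saengmaek-san have none.

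In Soyo-san at the high dose, 4 members were higher than in vehicle. PGLS had 36.91 and 44.81 CPM, TALDO1 259.2 and 279.2 CPM, TKT 2005 and 2138 CPM and PGD 1679 and 1715 CPM, each above the vehicle libraries given earlier, as were 31.9% of all genes. The log2 fold changes were 0.48 ± 0.15 for PGLS, 0.30 ± 0.08 for TALDO1, 0.29 ± 0.09 for TKT and 0.23 ± 0.09 for PGD (edgeR adjusted p = 0.0121, 0.00496, 0.0149 and 0.0473). Of all genes 12.9% were called higher. The PGD call was lost whichever library was left out, and those of PGLS (0.34), TKT (0.24) and TALDO1 (0.24) were lost without high-dose replicate 2. All of these libraries are of class 2, as in vehicle, but of another library set, and extract and set cannot be told apart in this comparison.

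The levels at the 3 doses of Soyo-san were not in the order of the dose. TKT averaged 1693 ± 17.5 CPM in vehicle (SD, n = 3) and 2067 ± 98.7, 1883 ± 51.5 and 2072 ± 93.8 CPM at the low, medium and high dose (SD, n = 2 each). At the low dose TKT (0.29 ± 0.09) and TALDO1 (0.29 ± 0.08) were higher (edgeR adjusted p = 0.0374 and 0.0195, 5.34% of all genes called higher). The TKT call was lost whichever library was left out, and the TALDO1 call without vehicle replicate 1 or 3 or low-dose replicate 1. At the medium dose 0 members were called by edgeR or the DESeq2 Wald test, with 0.0489% of all genes called, and likewise between the high and the low dose, with 1.19%. In both comparisons 0 members had an unadjusted p under 0.05. With only the groups compared in the fit, PGLS (0.26), TKT (0.14) and TALDO1 (0.14) passed at the medium dose.

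Okbyeongpung-san, sequenced in the same set as Soyo-san, had 1 library per dose and no test. At the low, medium and high dose TKT had 2121, 1936 and 1936 CPM, TALDO1 275.3, 256.4 and 260.3 CPM, PGD 1709, 1567 and 1636 CPM and PGLS 40.5, 45.97 and 37.12 CPM. All of these lay above the 3 vehicle libraries, whereas RPE (76.7, 80.79 and 78.1 CPM) and ME1 (140.8, 143.8 and 137 CPM) lay below them at the 3 doses. Since 74.1%, 75.2% and 72.7% of all genes lay outside the vehicle range at the low, medium and high dose, such positions are the common case.

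For Saposhnikoviae Radix and Saengmaek-san, 0 members were called at any dose or between the high and the low dose, by edgeR or by the DESeq2 Wald test. Of all genes, 3.95%, 7.49% and 0.902% were called at the low, medium and high dose of Saposhnikoviae Radix, and 0.446%, 0.326% and 3.6% at those of Saengmaek-san. Between the high and the low dose 0.0707% were called in each. The members' log2 fold changes at the high dose ran from -0.06 to 0.10 in Saposhnikoviae Radix, where 0 had an unadjusted p under 0.05, and from -0.01 to 0.16 in Saengmaek-san, where 1 (TALDO1) did. At other doses and between doses, unadjusted p-values under 0.05 were seen for TALDO1 at the medium and ME1 at the low dose of Saposhnikoviae Radix, for ME1 and IDH1 between its doses and for ME1 at the low dose of Saengmaek-san. With only the groups compared in the fit, RPIA, RPE, TALDO1, ME1 and IDH1 passed at the low dose of Saposhnikoviae Radix (0.10 to 0.17). RPE and ME1 passed at its medium dose (0.14 each). The share of all genes in those fits is not given here. With the class as a covariate, PGD (0.17), TKT (0.17) and TALDO1 (0.19) passed at the high dose of Saengmaek-san and PGD at its low and medium dose (0.16 each). In Saposhnikoviae Radix that covariate gave calls for PGD (0.20), TKT (0.18) and TALDO1 (0.25) at the medium dose and for PGD (0.19) and TKT (0.18) at the low dose. The covariate fit called more genes of every kind, at 15.4% of all genes at the high dose of Saengmaek-san and 7.76% at its medium dose. At the medium dose of Saposhnikoviae Radix it called 15%. Its shares at the low doses are not given here, so the low-dose calls have no background beside them. The class 2 libraries of Saengmaek-san at the high dose had 1816 and 2008 CPM of TKT and its class 1 library 1631 CPM.

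Aucklandiae Radix and Guibi-tang at the low and medium dose and Menthae Herba at the medium dose also gave 0 member calls by edgeR and by the DESeq2 Wald test. At the medium dose 5.33% of all genes were called in Aucklandiae Radix, 5.29% in Menthae Herba and 0.527% in Guibi-tang. At the low dose 6.9% were called in Aucklandiae Radix and 0.223% in Guibi-tang. Unadjusted p-values under 0.05 were seen for RPE and ME1 at the medium dose of Aucklandiae Radix and for RPIA at the medium dose of Menthae Herba, and for 0 members in the other 3 comparisons. With only the groups compared in the fit, RPIA, RPE, TALDO1, ME1 and IDH1 passed at the medium dose of Aucklandiae Radix (0.11 to 0.18). TALDO1, ME1 and IDH1 passed at its low dose (0.11 to 0.17). At the medium dose of Menthae Herba, RPIA, RPE, TALDO1 and ME1 passed as higher (0.11 to 0.28) and PGD as lower (-0.08). The share of all genes in those fits is not given here. With the class as a covariate, PGD (0.20), TKT (0.20) and TALDO1 (0.26) passed at the low dose of Aucklandiae Radix and PGD (0.19) at its medium dose. PGD also passed at the low (0.16) and medium (0.15) dose of Guibi-tang, and TALDO1 (0.22) at the medium dose of Menthae Herba. At the medium dose that fit called 9.02% of all genes in Aucklandiae Radix, 10.6% in Menthae Herba and 7.66% in Guibi-tang. Its shares at the low dose are not given here.

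**Figure D4:**
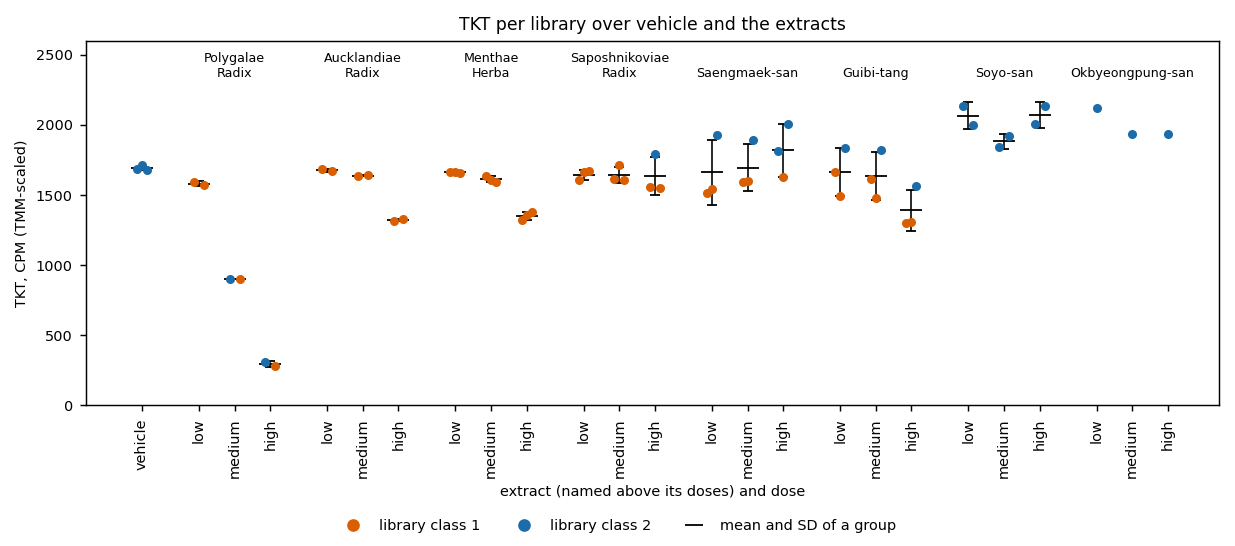
TKT in CPM (vertical axis, starting at 0) in all 60 libraries, by extract and rising dose. Points are libraries, coloured by class, with the mean and SD of each group of 2 or 3. The high-dose points of Polygalae Radix at 280.6 and 312.1 CPM stand far below the rest, and class 2 libraries lie above class 1 libraries in the mixed groups of Saengmaek-san and Guibi-tang.

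Over the 22 replicated groups, the lowest mean of every member but RPIA was at the high dose of Polygalae Radix. Leaving out its high and medium doses, PGD (1296 ± 28.4 CPM), TKT (1322 ± 7.79 CPM), TALDO1 (205.9 ± 0.872 CPM) and IDH1 (212 ± 3.51 CPM) were lowest at the high dose of Aucklandiae Radix, and ME1 (136.2 ± 3.67 CPM, n = 3) at the high dose of Menthae Herba. The highest means of PGLS (40.86 ± 5.59 CPM), PGD (1697 ± 25.9 CPM), TKT (2072 ± 93.8 CPM) and TALDO1 (269.2 ± 14.2 CPM) were at the high dose of Soyo-san. RPIA ran from 20.79 ± 0.865 CPM at the low dose of Soyo-san to 29.05 ± 1.57 CPM at the high dose of Menthae Herba. These means are not adjusted for class. Soyo-san libraries are all of class 2 and those of Aucklandiae Radix and Menthae Herba all of class 1, and the part of the class in the order was not tested.

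Related genes were counted beside the members at the high dose of Polygalae Radix. Of the other pentose phosphate and ribose enzymes, 7 of 10 tested fell, 0 rose, and the median was -0.53. RBKS, the ribokinase, was at 0.819 ± 0.155 CPM, against 4.39 ± 0.337 CPM in vehicle (-2.39 ± 0.17), PRPS2, which makes phosphoribosyl pyrophosphate, at 45.7 ± 1.97 CPM against 75.7 ± 1.0 CPM (-0.73 ± 0.05), and DERA, the deoxyribose phosphate aldolase, at 34.0 ± 3.72 CPM against 54.6 ± 0.65 CPM (-0.68 ± 0.08). In Aucklandiae Radix at the high dose RBKS (0.47 ± 0.13) and DERA (0.25 ± 0.08) were higher than in vehicle, while PRPS2 was lower (-0.31 ± 0.05). The edgeR adjusted p-values of these 6 changes were 0.0088 or below.

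Of 12 other enzymes listed with NADPH production, 9 fell and 1 rose at the high dose of Polygalae Radix, with a median of -1.08. The list also holds NADK, NADK2, ME2 and MTHFD1L, which are not themselves NADPH producers. ALDH1L2, which makes mitochondrial NADPH from 10-formyltetrahydrofolate, was at 4.21 ± 0.57 CPM, against 24.9 ± 1.84 CPM in vehicle (-2.55 ± 0.12). MTHFD1, the cytosolic folate enzyme, was at 49.6 ± 1.57 CPM against 212 ± 2.37 CPM (-2.09 ± 0.05), and NNT, the transhydrogenase of the inner mitochondrial membrane, at 8.93 ± 1.95 CPM against 38.6 ± 1.62 CPM (-2.09 ± 0.11). MTHFD1 and NNT also fell in Aucklandiae Radix (-0.58 ± 0.05 and -0.87 ± 0.10) and Guibi-tang (-0.27 ± 0.04 and -0.31 ± 0.09). In Menthae Herba at the high dose 6 were higher and 1 was lower of 12 (median 0.27), where 14.5% of all genes were called higher and 14.9% lower, and ALDH1L2 was at 48.2 ± 1.87 CPM against 24.9 ± 1.84 CPM in vehicle (0.95 ± 0.09). The edgeR adjusted p-values of these 8 changes were 0.02 or below.

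The genes listed as glycolysis enzymes fell with the members: 14 of 15 were lower and 1 was higher at the high dose of Polygalae Radix, with a median of -1.77. That list also holds TIGAR, which is not itself an enzyme of glycolysis. ENO1, the enolase, was at 374 ± 47 CPM, against 2350 ± 12.2 CPM in vehicle (-2.65 ± 0.12), and PGK1, the phosphoglycerate kinase, at 92.2 ± 26.8 CPM against 516 ± 10.2 CPM (-2.48 ± 0.15). NRF2 targets outside the members split, with 11 lower and 7 higher of 20 and a median of -0.44. NQO1, a quinone reductase that uses NADPH, was at 368 ± 90.1 CPM against 1530 ± 17.9 CPM (-2.06 ± 0.12), and AKR1C3, a ketosteroid reductase, at 204 ± 71.3 CPM against 743 ± 35.5 CPM (-1.86 ± 0.19). In Aucklandiae Radix and Menthae Herba at the high dose NQO1 was higher than in vehicle (0.45 ± 0.11 and 0.32 ± 0.10), while TKT was lower there. Of 6 NRF2 regulators 5 were higher (median 0.84), and of 13 mitochondrially encoded mRNAs edgeR called 0 (median -0.13). Each of these lists is counted beside 29.5% of all genes lower, 30% higher and a median of 0.05.

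**Figure D5:**
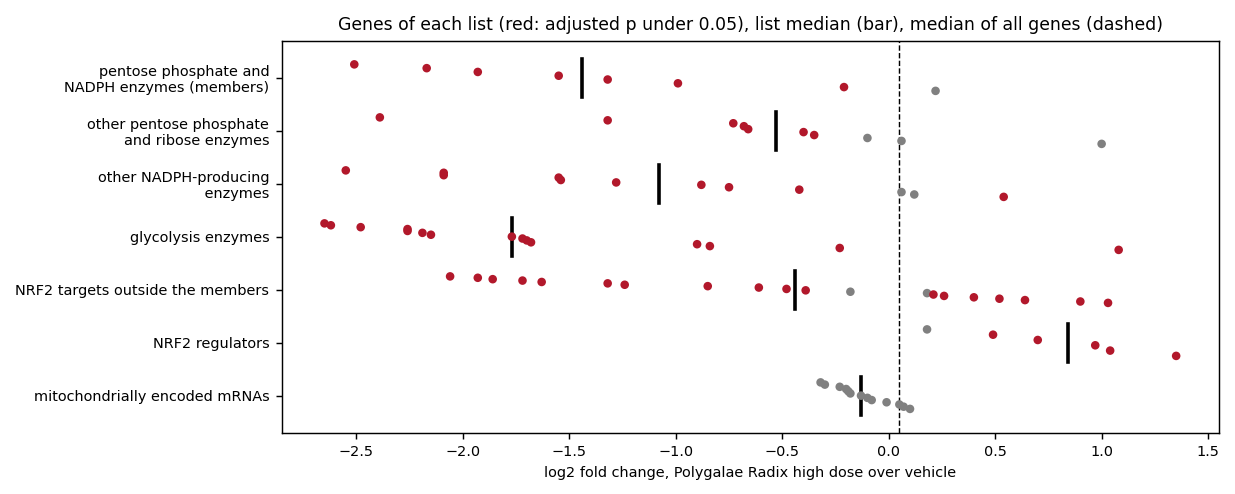
Log2 fold change between the high dose of Polygalae Radix and vehicle (horizontal axis) for each gene of 7 lists (rows). Red points passed an adjusted p of 0.05, black bars are list medians and the dashed line is the median of all genes tested at 0.05. The members (median -1.44) lie between the glycolysis enzymes (-1.77) and the list labelled other NADPH-producing enzymes (-1.08), while NRF2 targets spread on both sides of 0. Not every gene under that label makes NADPH itself, and the glycolysis list also holds TIGAR.

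The members did not all follow each other over the 22 groups. With the class difference removed from log2 CPM, Pearson's r between group means was 0.993 for PGD and TKT, 0.991 for PGD and TALDO1, 0.982 for PGD and IDH1 and 0.964 for PGD and ME1. Without the high dose of Polygalae Radix (21 groups) these were 0.955, 0.943, 0.873 and 0.719. RPIA had r between -0.364 and 0.0609 with the other members over 22 groups and between -0.276 (ME1) and 0.553 (PGLS) over 21. RPE had r of 0.641 with TKT over 22 groups and -0.159 over 21. Groups share library sets and 1 scaling, so these values describe the profiles and carry no test.

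By the same measure over 8165 genes (mean log2 CPM at or above 4), the 3 protein-coding genes most like TKT were PGD, ACTN1 and SDHA (0.993 each). Those most like PGD were PGM1 (0.994), ANXA6 (0.993) and TKT (0.993), and all 3 stayed without the high dose of Polygalae Radix, against 2 of 3 for IDH1 and RPE and 1 of 3 for TKT, TALDO1, ME1 and PGLS. Without removal of the class difference, 1 of the 3 stayed for PGD. TALDO1 was followed by PEBP1 (0.995), PPP1CA (0.994) and PPP1R7 (0.994), IDH1 by USP11 (0.994), ATP5F1B (0.994) and PRDX6 (0.993), and ME1 by HPGD (0.986), LASP1 (0.986) and EXOC4 (0.985). PGLS was followed by UBXN6 (0.966), RABAC1 (0.966) and APRT (0.965) and RPE by DNM1L (0.969), MBNL2 (0.958) and UEVLD (0.940). For RPIA the values were lower, with GDF15 (0.776) and UBL4A (0.769) among its 3, and 0 of these stayed without the high dose of Polygalae Radix, when STC2, ARIH2 and DDIT4 took their place.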

How the data were processed

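RNA was sequenced from A549 cells, 1 library per sample. The submitters' processing notes list RSEM 1.3.3, STAR 2.7.3a, Trim Galore 0.6.5 and FastQC 0.11.9, and hg38 and GRCh38 as builds. They name no annotation release. The deposited table holds the authors' expected counts per Ensembl gene, of which 9.95% carry decimals, and these were rounded before fitting. Gene positions are from GENCODE 29.

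Tests used edgeR 4.0.16 (R 4.3.3, limma 3.58.1): TMM scaling, filterByExpr, a quasi-likelihood F-test, two-sided, over 57 libraries in 22 groups (35 residual degrees of freedom), for 31 comparisons. P-values were adjusted within each comparison over 18396 genes (Benjamini-Hochberg), with a threshold of 0.05. Standard errors come from the F statistic (the size of the log2 fold change over the root of F). Okbyeongpung-san stayed out of the fit, and its positions are from CPM with 1 library per dose. Profiles used log2 CPM with a prior count of 2.

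The fit was tested on simulated data first. Members and lists were chosen with earlier results of these data known. Each list is given by its counts and median, and the genes named are the 3 called in most high-dose comparisons or, for the NRF2 targets and glycolysis, the 2 with the largest change in any comparison. Genes named as most alike are the 3 with the highest Pearson r, of which 1 is not reported here. Alternatives were DESeq2 size factors, no filter, the replicate number as a block, the Wald test of DESeq2 1.42.0, the library class as a covariate, only the groups compared, a 2-fold threshold and each library left out. For the last of these, the genes and the dispersion trend of the full fit were kept. RPE overlaps KANSL1L, IDH1 overlaps IDH1-AS1, and PGLS and ME1 overlap noncoding genes, all on the opposite strand. The counting's strand setting is not stated, so reads of such pairs may be shared. KANSL1L reached at most 12.08 CPM and the others 1.234 CPM.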

Additional observations from a re-analysis of the deposited data

How the results depend on the processing

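Of 248 member results (8 members in 31 comparisons), 46 passed the threshold, and the count was 45 with DESeq2 size factors, 44 with no filter on low counts, 49 with the DESeq2 Wald test, 48 with the replicate block, 80 with the library class covariate, 85 with only the groups compared and 16 at 2-fold or more. The share of all genes called also moved with the setting. At the high dose of Saengmaek-san it was 3.6% in the main fit and 15.4% with the class covariate. Without such shares for each setting, these counts cannot be read as particular to the members. With the class covariate, 10 results that were uncalled before passed with the opposite sign. PGD became 0.19 in Aucklandiae Radix and 0.20 in Saposhnikoviae Radix at the medium dose. It became 0.18, 0.20, 0.18 and 0.19 at the low dose of Polygalae Radix, Aucklandiae Radix, Menthae Herba and Saposhnikoviae Radix. TKT became 0.18 at the medium dose of Saposhnikoviae Radix and 0.20, 0.19 and 0.18 at the low dose of Aucklandiae Radix, Menthae Herba and Saposhnikoviae Radix. These groups are all of class 1 and vehicle is of class 2, and the class difference of PGD and TKT was 0.22 each. Other results changed sign without passing. The cause was not tested.

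The counts by dose that follow also have no share of all genes beside them and describe only how the settings differ. At the high dose against vehicle, 6 member results were higher and 10 lower. The higher count was 0 at 2-fold, 12 with the class covariate, 11 with only the groups compared and 2 to 8 with 1 library left out, and the lower count was 5 at 2-fold, 15 with only the groups compared and 9 to 11 with 1 library left out. At the medium dose 0 were higher and 5 lower. The higher count was 7 with the class covariate and 14 with only the groups compared, and the lower count was 0 at 2-fold, 3 with only the groups compared and 3 to 5 with 1 library left out. At the low dose 3 were higher and 0 lower. The higher count was 0 at 2-fold, 17 with the class covariate, 15 with only the groups compared and 0 to 4 with 1 library left out, and the lower count was 3 with only the groups compared. Between the high and the low dose 0 were higher and 12 lower. The higher count was 1 with no filter, 2 with the class covariate and 1 with only the groups compared, and the lower count was 5 at 2-fold and 9 to 13 with 1 library left out. Between extracts of a set 1 was higher and 9 lower. The higher count was 0 at 2-fold, 2 with no filter, with the class covariate, with the Wald test and with only the groups compared, and 1 to 2 with 1 library left out, when the lower count was 8 to 10.

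The replicate number was not used as a pairing, since no comparison with 3 pairs had every pair's correlation above 0.1. The closest was Guibi-tang high against low dose (0.06 to 0.41). That rule cannot show that libraries of a number were unrelated. In Guibi-tang and Saengmaek-san, replicate 3 is of class 2 at every dose, so number and class overlap there. With the replicate block, 7 members were higher and 10 lower at the high dose, 4 higher at the low dose and 12 lower between the high and the low dose. The block lost 0 calls and added 2, RPE at the high dose of Aucklandiae Radix (0.19) and PGLS at the low dose of Soyo-san (0.44). A prior count of 5 moved the Okbyeongpung-san log2 ratios by at most 0.01. Groups of 1 to 3 libraries and 1 vehicle set limit what small changes can show.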
